A study of Mus musculus with 4 samples.

Results

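The genes described here are 10 components of the Sonic hedgehog pathway, namely the receptor Ptch1, the transducer Smo, the coreceptors Boc, Gas1 and Cdon, the transcription factors Gli1, Gli2 and Gli3, and the inhibitors Hhip and Sufu. They were chosen by name, and every probe set that the platform annotation assigned to one of these symbols alone was taken, which gave 22 of the 24679 probe sets that name 1 gene. All 10 genes had at least 1 probe set. They were read in 4 mouse cerebellar tumors of a single group, 1 Affymetrix Mouse Genome 430 2.0 array per tumor. On this array a transcript is measured by probe sets of short oligonucleotides. The tumors carry the genotype Chd7-het in their titles, Chd7 being the gene of a chromatin remodelling ATPase, on a mixed CD1xC57BL/6 background, and are called tumors 1, 2, 4 and 5 after their sample numbers. The labels give no age, no treatment, no initiating event and no normal cerebellum, so neither a change from normal tissue nor an effect of the genotype could be measured.

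Hedgehog ligands bind Ptch1, which otherwise holds Smo inactive, and active Smo lets Gli proteins enter the nucleus as activators. In the cerebellum, Sonic hedgehog from Purkinje cells drives the division of granule cell progenitors, and mouse and human medulloblastomas of one subgroup arise when this pathway is left on. Ptch1, Gli1 and Hhip are themselves targets of the pathway, so their transcripts are commonly read as its output, whereas Boc, Gas1, Cdon and Gli3 are known to be lowered by the signal in several tissues.

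The values are log2 signals. A signal at or under 5.12 on this scale (34.8 linear), called the floor, was treated as not measured above low-level noise, and each value below is given as deposited. This floor was set at the median over arrays of the 40th percentile. The share of all probe sets above it, 59.1% to 61.3% on each array, follows from that. Of the 22 hedgehog probe sets, 12 lay above the floor in every tumor, 6 in some tumors and 4 in none. These same 12 probe sets, of 8 genes, had a mean at or above 5.87, the minimum for testing. Gli3 and Cdon had no probe set that reached it. Each tumor is 1 array, so a tumor has no error of its own and the SD given for a gene is the spread over tumors.

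The receptor and the transducer read lowest in tumor 1. Ptch1, the receptor, read 10.98, 11.12, 11.19 and 11.27 in tumors 1, 2, 4 and 5 with probe set 1428853_at (mean 11.14 ± 0.12, SD, n = 4). The highest and lowest tumors were 1.22-fold apart, and 30.4% of all tested probe sets had a smaller range. After quantile normalization, which gives every array the same distribution, tumor 2 became the highest for Ptch1 at 11.28 and tumors 1 and 4 the lowest, both at 11.07. The other Ptch1 probe sets were mostly at noise. 1439663_at lay above the floor in tumor 2 alone, at 5.73, with 4.16 to 4.52 in the other tumors, and 1450824_at lay between 3.57 and 4.44.

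Smo, the membrane protein that Ptch1 restrains, read 8.64, 8.93, 9.01 and 9.12 in tumors 1, 2, 4 and 5 with 1427049_s_at (mean 8.92 ± 0.20, SD, n = 4). Its other probe set, 1427048_at, read 6.98, 7.26, 7.40 and 7.37 (mean 7.25 ± 0.19, SD, n = 4). Both probe sets put tumor 1 under the other 3, which lay close together.

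The coreceptors bind the ligand beside Ptch1. Boc, a membrane protein of the immunoglobulin superfamily, read 7.84, 8.19, 8.22 and 8.26 in tumors 1, 2, 4 and 5 with 1426869_at (mean 8.13 ± 0.20, SD, n = 4). With 1427516_a_at it read 7.69, 7.85, 8.05 and 8.33 (mean 7.98 ± 0.28, SD, n = 4). Tumor 1 was lowest and tumor 5 highest on both, but the first set tumor 1 apart from 3 close tumors and the second spread the tumors more evenly.

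Gas1, a coreceptor anchored to the membrane by a lipid, varied more than Boc on 1 of its probe sets. 1416855_at read 9.56, 9.72, 10.05 and 10.43 in tumors 1, 2, 4 and 5 (mean 9.94 ± 0.39, SD, n = 4), a range of 1.84-fold that exceeded that of 91.8% of all tested probe sets. 1448494_at read 8.20, 8.62, 8.62 and 8.59 (mean 8.51 ± 0.20, SD, n = 4). The pair shared the low value in tumor 1, and 1416855_at alone put tumor 5 above the rest. Cdon, the relative of Boc, read 5.36, 4.66, 4.77 and 4.45, above the floor in tumor 1 alone and at least 1.18-fold over it there.

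Of the Gli factors, Gli1 and Gli2 read highest in tumor 2 and lowest in tumor 1. Gli1, an activator and pathway target, read 7.11, 7.80, 7.30 and 7.53 in tumors 1, 2, 4 and 5 with its single probe set, 1449058_at (mean 7.44 ± 0.30, SD, n = 4). Gli2, the main activator that receives the signal, read 8.93, 9.73, 9.11 and 9.01 with 1459211_at (mean 9.19 ± 0.36, SD, n = 4). With 1446086_s_at it read 6.94, 7.65, 7.42 and 7.26 (mean 7.32 ± 0.30, SD, n = 4). Both Gli2 probe sets placed tumor 2 highest and tumor 1 lowest, as the probe set of Gli1 did, and the ranges of 1.62-fold for Gli1 and of 1.75-fold and 1.63-fold for Gli2 exceeded those of 84.6%, 89.6% and 85.2% of all tested probe sets.

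Gli3, the factor that acts mostly as a repressor, gave a different picture. 1455154_at read 5.81, 4.23, 2.83 and 2.29 in tumors 1, 2, 4 and 5, and 1456067_at read 5.70, 4.36, 1.68 and 3.75. Both lay above the floor in tumor 1 alone, where they exceeded it by 0.69 and 0.58 on the log2 scale, a lower bound of the difference from the other tumors. The differences below the floor have no order, because low signals of this kind are dominated by noise.

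Among the inhibitors, Hhip was highest in tumor 1, where Smo, Gli1, Boc and Gas1 were lowest. Hhip, a membrane protein that binds and sequesters the ligand and is induced by the pathway, read 6.72, 6.08, 5.68 and 6.06 in tumors 1, 2, 4 and 5 with 1455277_at (mean 6.14 ± 0.43, SD, n = 4). Tumor 1 was highest and tumor 4 lowest, 2.05-fold apart, and 95.0% of all tested probe sets had a smaller range. Its other probe sets were dimmer: 1438083_at read 5.57, 5.28, 4.50 and 4.77, 1421426_at read 5.55, 4.71, 4.43 and 5.21, and 1437933_at stayed under the floor, between 3.63 and 5.11. On the pair that cleared the floor, it did so in tumors 1 and 2 and in tumors 1 and 5, with tumor 1 highest, and no order is read below the floor. They read the same gene and are not separate evidence. Among all tested probe sets, tumor 1 was highest and tumor 4 lowest in 6.81%.

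Sufu, which holds Gli proteins in the cytoplasm, varied little. 1450024_at read 8.06, 8.14, 7.82 and 8.08 in tumors 1, 2, 4 and 5 (mean 8.02 ± 0.14, SD, n = 4), with tumor 4 lowest. Its other probe sets, 1420848_at and 1431713_at, lay under the floor in every tumor.

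**Figure D1:**
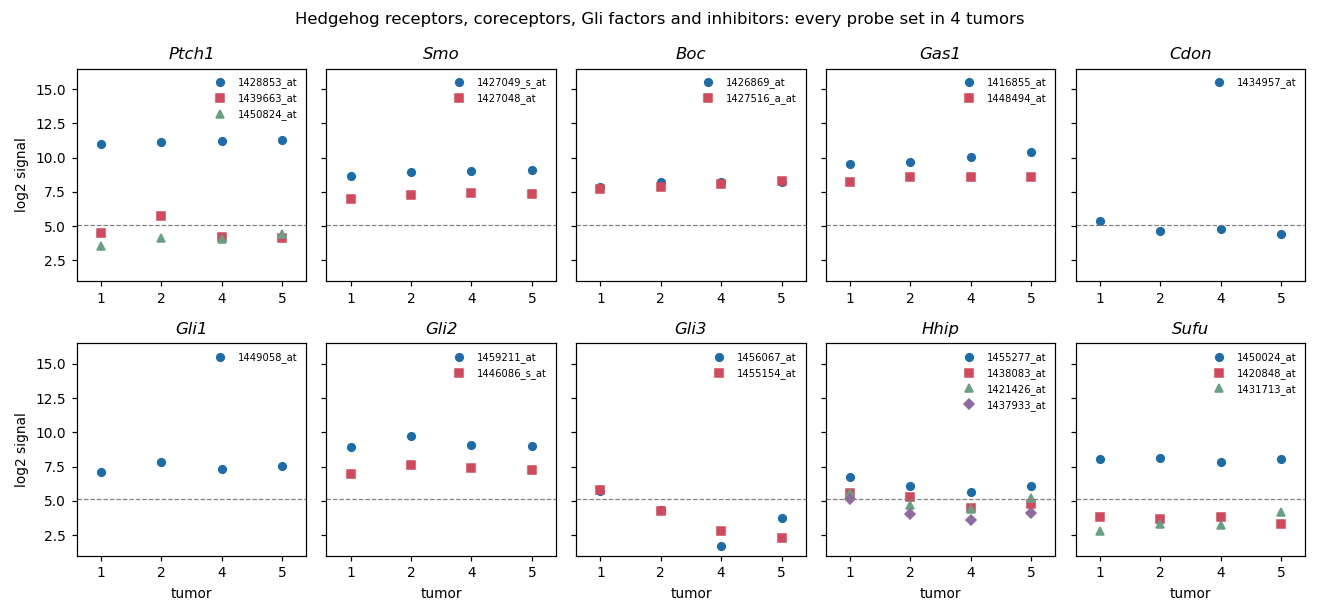
Log2 signal of all 22 probe sets of the 10 genes (vertical axis) in tumors 1, 2, 4 and 5 (horizontal axis), 1 panel per gene, 1 point per array, with the floor of 5.12 as a dashed line. Gli1 and Gli2 are highest in tumor 2, Hhip is highest in tumor 1 on each probe set that clears the floor, and Gli3 clears the floor in tumor 1 alone.

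Each tumor was then set against the other 3 over all 13525 probe sets that could be tested, with limma. To pass, a probe set needed a Benjamini-Hochberg adjusted p below 0.05 and a difference of at least 2-fold. That difference cannot exceed the range over the tumors, which reached 2-fold in 1 of the 12 hedgehog probe sets, that of Hhip. The rest could not pass at any p. Since a single tumor has no spread of its own, this test takes that of the other 3 for it, and a call means that the tumor falls beyond them. For tumors 2, 4 and 5 the other 3 include tumor 1, so a lack of calls there does not mean that these tumors are alike. None of the 12 hedgehog probe sets passed in any tumor (0 of 12 in each). Of all tested probe sets, 0.872% passed in tumor 1 and 0% in each of tumors 2, 4 and 5. At an unadjusted p under 0.05 there were 5 of 12 in tumor 1, against 10.9% of all tested, 1 of 12 in tumor 2, against 6.3%, 0 of 12 in tumor 4, against 0.621%, and 1 of 12 in tumor 5, against 3.55%.

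In tumor 1, Hhip had the smallest adjusted p of the members. It differed from the mean of the other 3 by 0.78 on the log2 scale (1.71-fold higher, SE 0.24, limma adjusted p = 0.263, range over the alternatives 0.0726 to 0.724). Gli1 differed by -0.44 (SE 0.23, limma adjusted p = 0.571) and Gli2 by -0.36 on its brighter probe set 1459211_at (SE 0.27, limma adjusted p = 0.747) and -0.50 on 1446086_s_at (SE 0.21, limma adjusted p = 0.442). Smo 1427049_s_at differed by -0.38 (SE 0.16, limma adjusted p = 0.434), Boc 1426869_at by -0.39 (SE 0.16, limma adjusted p = 0.416) and Gas1 by -0.51 on its brighter probe set 1416855_at (SE 0.26, limma adjusted p = 0.563) and -0.41 on 1448494_at (SE 0.15, limma adjusted p = 0.350). Ptch1 differed by -0.21 (SE 0.19) and Sufu by 0.045 (SE 0.19), each close to its standard error or under it. Each of these differences was under 2-fold, although most were larger than their standard errors. Without tumor 2, Gas1 1416855_at in tumor 1 reached a limma adjusted p of 0.0405 (range over the alternatives 0.0405 to 0.983) at a difference of -0.68, still under 2-fold.

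Most of the tested members shared a direction in tumor 1. It was the lowest of the 4 in 10 of the 12 probe sets, all but those of Hhip and Sufu, whereas it was lowest in 31% of all tested probe sets. Counted once per gene it was lowest in 6 of 8 genes, against 31.4% of all 8498 tested genes. Gli3 and Cdon, too dim to be tested, went the other way and cleared the floor in tumor 1 alone. Tumor 1 was also lowest in 10 of the 12 after quantile normalization, against 34% of all tested. The median difference of tumor 1 was -0.38 over the 12 probe sets and -0.031 over all tested, and 10 of 12 were below the mean of the other tumors, against 55.4% of all tested.

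In tumor 2, Gli2 was the member with the largest difference. 1459211_at lay 0.71 above the mean of the other 3 (1.64-fold, SE 0.15, limma adjusted p = 0.784). Without tumor 1 this difference was 0.67 with a limma adjusted p of 0.0273 (range over the alternatives 0.0273 to 1.00), still under 2-fold, so it did not pass there either. The other Gli2 probe set differed by 0.44 (SE 0.23) and Gli1 by 0.49 (SE 0.22), with a limma adjusted p of 0.789 for both. In tumor 5, Gas1 1416855_at lay 0.66 above the others (1.58-fold, SE 0.22, limma adjusted p = 0.954), and its other probe set differed by 0.11 (SE 0.22). In tumor 4, Hhip differed by -0.60 (SE 0.34, limma adjusted p = 1.00), and Sufu differed by -0.27 (SE 0.19, limma adjusted p = 1.00). 

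**Figure D2:**
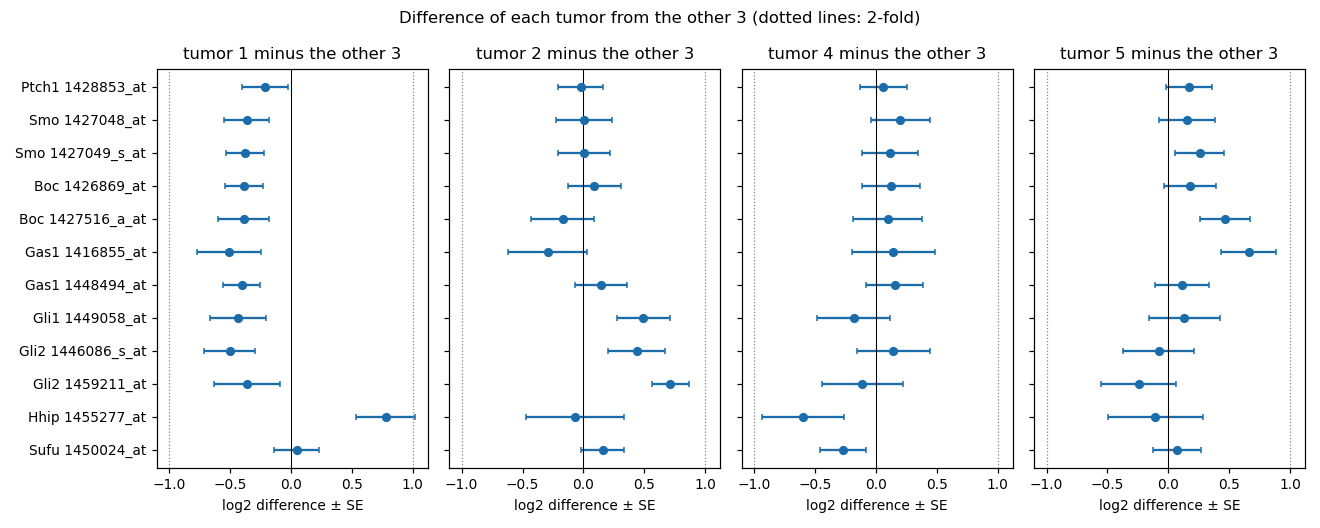
Log2 difference of each tumor from the mean of the other 3, with its standard error as a bar, for the 12 tested hedgehog probe sets, 1 panel per tumor, with dotted lines at 2-fold. In tumor 1, 10 of 12 points lie below 0 and Hhip lies above it, in tumor 2 the points of Gli1 and Gli2 lie above 0, and no point reaches 2-fold.

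A range of 2-fold or more over the 4 tumors was seen in 1 of the 12 probe sets, that of Hhip, and in 5.48% of all tested. That call ended after quantile normalization, with the floor at the 50th percentile, without tumor 1 and without tumor 4. A range of 1.5-fold or more was seen in 6 of 12, against 23.5% of all tested. The median range was 0.56 on the log2 scale over the 12 and 0.39 over all tested.

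Activators, inhibitors and coreceptors were then set side by side, with 1 probe set per gene and signals raised to the floor. With 4 tumors no correlation across tumors is given. The activators Smo, Gli1 and Gli2 deviated from their means over the tumors by -0.29, 0.30, -0.044 and 0.036 on average in tumors 1, 2, 4 and 5. These genes were all low in tumor 1, but in tumor 2 the average rested on Gli1 (0.37) and Gli2 (0.54), with Smo at 0.0027. The inhibitors Ptch1, Hhip, Sufu and Gli3 deviated by 0.22, -0.024, -0.19 and -0.011. They did not move as a unit: in tumor 1, Hhip stood at 0.58 and Gli3 at 0.44, the latter bounded by the floor, with Ptch1 at -0.16. The coreceptors deviated by -0.17, -0.070, 0.047 and 0.19, and differed among themselves: in tumor 1, Boc stood at -0.29 and Gas1 at -0.38, but Cdon at 0.18, bounded by the floor in the other tumors. After quantile normalization the averages moved by less than their SD over tumors (0.25, 0.17 and 0.15 for activators, inhibitors and coreceptors).

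The targets Ptch1, Gli1 and Hhip, which the pathway is known to induce, had their high values in different tumors as deposited, in tumors 5, 2 and 1. After quantile normalization Ptch1 and Gli1 were both highest in tumor 2, at 11.28 and 7.78. Within each array, Gli1 relative to Hhip was lowest in tumor 1 and highest in tumor 2, at -0.91, 0.42, 0.31 and 0.18 in tumors 1, 2, 4 and 5 around its mean, a range of 2.52-fold. Gli1 relative to Ptch1 spanned 1.48-fold, with tumor 2 highest at 0.38. Gas1 relative to Hhip spanned 2.91-fold, from -0.97 in tumor 1 to 0.57 in tumor 5. These contrasts were not tested.

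**Figure D3:**
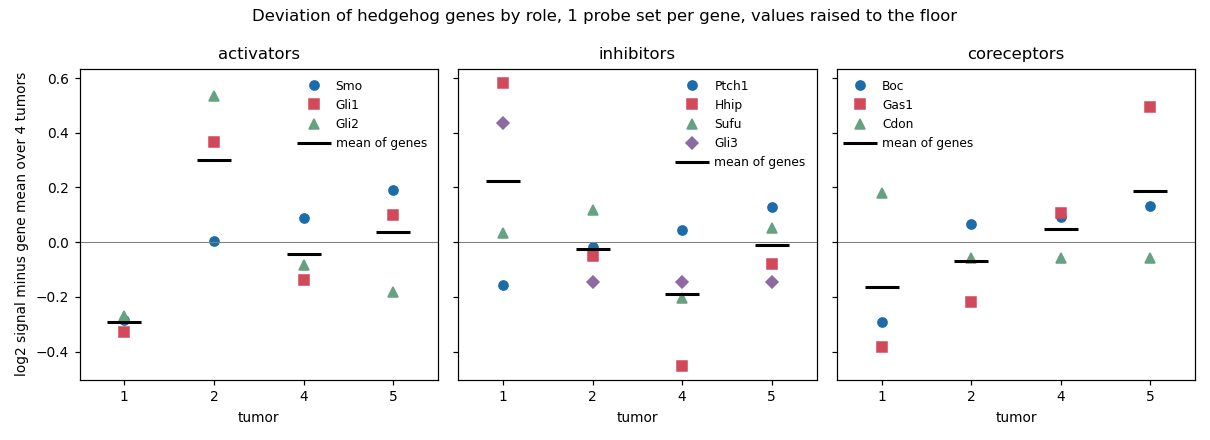
Deviation of each gene's log2 signal from its mean over the 4 tumors (vertical axis), by tumor (horizontal axis), for activators, inhibitors and coreceptors; points are genes, bars are the mean of the genes in a panel. In tumor 1 the activators lie together near -0.29, and among the inhibitors Hhip (0.58) and Gli3 (0.44) lie far above Ptch1 (-0.16).

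The genes most like Gli1 over the tumors were sought among 5060 genes above the floor in every tumor with an SD of at least 50% of that of Gli1. The measure was the root mean square difference between log2 signals centred on their means. The closest were Wdr90 (0.017), Rrp15 (0.034), Iqgap3 (0.043), Ncapg (0.045), Flna (0.047) and Cdc7 (0.047). Ncapg encodes a condensin subunit that acts in mitosis, Cdc7 a kinase that fires replication origins, and Flna the actin cross-linker filamin A. Among the members themselves Gli2 was the closest to Gli1, at 0.17, and ranked 539, and Hhip ranked 4630. For Hhip, the closest of 2929 genes were Lsamp (0.036), Nt5dc3 (0.044), Pdzrn3 (0.049), Atxn1 (0.061), Fam126b (0.063) and Csnk1g1 (0.067), of which Lsamp encodes a neuronal adhesion molecule. With 4 arrays, many genes share any given pattern.

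Other genes of the pathway were read from lists of ligands, further receptors, regulators of Smo and Gli, and targets. Of 48 listed gene symbols, 40 had a probe set with a single symbol and 25 could be tested. In tumor 1, 1 of 25 passed, at a lower level, against 0.872% of all tested probe sets, and none passed in tumors 2, 4 and 5 in limma (0 of 25 in each). At an unadjusted p under 0.05 there were 5, 0, 1 and 1 of the 25 in tumors 1, 2, 4 and 5, against 10.9%, 6.3%, 0.621% and 3.55% of all tested. The ligand genes lay at noise: Shh read 3.85, 3.28, 2.72 and 2.66 in tumors 1, 2, 4 and 5, and Ihh did not clear the floor in any tumor. Disp1, which releases the ligand from producing cells, cleared the floor in tumor 5 alone (5.36). Of the further receptors Gpc3, a glypican that binds the ligand, was the 1 tested, with a lowest signal of 6.62 in tumor 5 and a highest of 7.31 in tumor 2.

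Of the 14 tested regulators of Smo and Gli, 10 read above the other tumors in tumor 1 and 4 below, where 55.4% of all tested read below, and 0 passed in limma or had an unadjusted p under 0.05. Their median difference was 0.12. The largest ranges above the floor were those of Btrc (0.57 on the log2 scale), a ubiquitin ligase subunit that acts in Gli processing, Itch (0.51), also a ubiquitin ligase, and Evc2 (0.46), a ciliary partner of Smo that was too dim to be tested.

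Of the 10 tested targets, 8 read below the other tumors in tumor 1 and 2 above (median -0.41), where 55.4% of all tested read below. Atoh1, Pax6 and Mycn are also in the granule cell list described further on and are not separate evidence there. Hsd11b2, which encodes the enzyme that inactivates glucocorticoids, was the gene that passed, at a lower level. It read 8.21, 9.25, 9.27 and 9.55 in tumors 1, 2, 4 and 5, a difference of -1.14 in tumor 1 (SE 0.17, limma adjusted p = 0.0328, range over the alternatives 0.000933 to 0.177). That call was lost without the mean filter, with the floor at the 50th percentile, without the intensity trend and without both floor and filter. Atoh1, a transcription factor that marks granule cell progenitors, differed by -0.83 (limma adjusted p = 0.135), Sfrp1, a WNT antagonist, by -0.61 (limma adjusted p = 0.208) and Ccnd1, a D-type cyclin, by -0.39 (limma adjusted p = 0.474). The higher pair was Pax6, which hedgehog signalling lowers in the neural tube, at 1.26 (limma adjusted p = 0.0525, range over the alternatives 0.000533 to 0.347), and Igf2, an imprinted growth factor gene, at 0.82 (limma adjusted p = 0.532). Pax6 passed with 1 probe set per gene (limma adjusted p = 0.0317), with the less specific _x_at and _s_at probe sets removed (0.0446), without tumor 2 (0.00191) and without tumor 5 (0.000533).

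**Figure D4:**
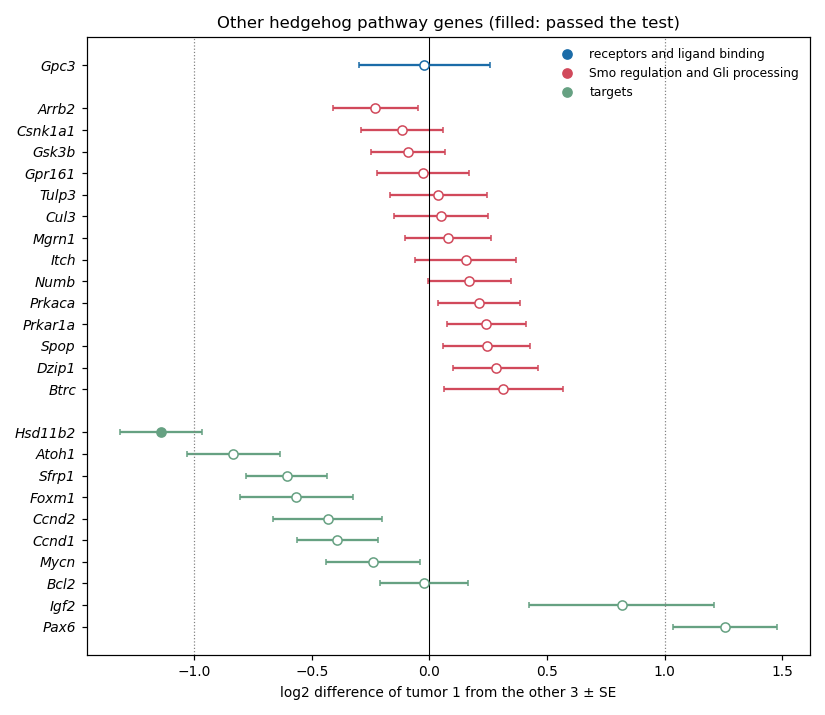
Log2 difference of tumor 1 from the mean of the other 3, with its standard error as a bar, for the 25 tested genes of the other hedgehog lists, coloured by list; dotted lines mark 2-fold. Hsd11b2 at -1.14 is the filled point, the 1 that passed, and 8 of the 10 targets lie below 0.

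Markers of other cells also moved with tumor 1. Over all tested probe sets, 0.872% passed in tumor 1, and some of the listed genes were tested only because they were bright there. The summed linear signal of the 7 Purkinje cell and inhibitory neuron genes on the array was 3839 in tumor 1 and 285.4 to 555.7 in the others, and 5 of 5 tested genes passed there. The 8 genes of mature neurons summed to 5709 against 2203 to 2399, with 3 of 4 passing, and the 9 of oligodendrocytes to 6247 against 2455 to 3383, with 2 of 7 passing, Ugt8a and Cldn11. Of those 7, 4 read higher in tumor 1 and 3 lower, the lower ones being the lineage factors Sox10 (-0.80, limma adjusted p = 0.392), Olig2 (-0.66, limma adjusted p = 0.173) and Olig1 (-0.37, limma adjusted p = 0.523). Calb1 of Purkinje cells (9.45, 3.89, 6.02 and 4.60 in tumors 1, 2, 4 and 5) lay under the floor in tumors 2 and 5. In each of these, 3 of the 7 genes of its list still lay above the floor. They included Car8 (7.08 in tumor 2 and 6.31 in tumor 5) and Pvalb (6.28 and 6.29). Genes of astrocytes and Bergmann glia, cells known to respond to the ligand, summed to 7838 in tumor 1 and 6113 to 7306 elsewhere. Of the measured genes, 10 of 10 lay above the floor in every tumor. In tumor 1, 8 read above the other tumors, among them Gdf10 (1.84), and 2 below, Gfap (-0.98) and Fabp7 (-0.13). Genes of fibroblasts and mural cells summed to 1242 against 642.9 to 830.4 (0 of 4 passing in limma, 2 with an unadjusted p under 0.05), and endothelial genes to 313.3 against 219 to 284.4 (0 of 2 passing, 0 with an unadjusted p under 0.05). Calb1, Gad1, Pcp4, Syt1, Chn2, Cldn11 and Gdf10 were bright enough for the test through tumor 1 alone, so their passing there adds nothing. Of the passing genes of these lists, Car8, Pvalb, Snap25 and Ugt8a remain. Hhip, Gli3 and Cdon were highest in the same tumor as these sums.

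Genes of dividing cells summed to 6144 in tumor 1 and 8392 to 8726 in the others. In tumor 1, 7 of 7 tested genes lay below the other tumors (median -0.45), where 55.4% of all tested probe sets did. Microglia genes summed to 2848 against 3664 to 5225. Of these 9 genes, 7 read below the other tumors in tumor 1 and 2 above, Cx3cr1 (0.064) and Csf1r (0.074). The bright Lyz2, which weighs heavily in a linear sum, read 9.49, 10.41, 11.04 and 10.62 in tumors 1, 2, 4 and 5. Genes of the granule cell lineage, plotted as granule cell progenitor, lay above the floor in every tumor (9 of 9). They summed to 11920 in tumor 1 and 10409 to 11444 in the others. These genes went both ways in tumor 1: 6 read above the other tumors and 3 below. Those above included Pax6 (1.26), Cntn2 (1.12), Nhlh1 (0.74) and Neurod1 (0.63). Those below were Atoh1 (-0.83), Barhl1 (-0.36) and Mycn (-0.24), so the sum does not stand for progenitors alone. The part of these cells in the values of the hedgehog genes was not tested, and in bulk tissue fewer cells of a type cannot be told apart from less RNA per cell.

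**Figure D5:**
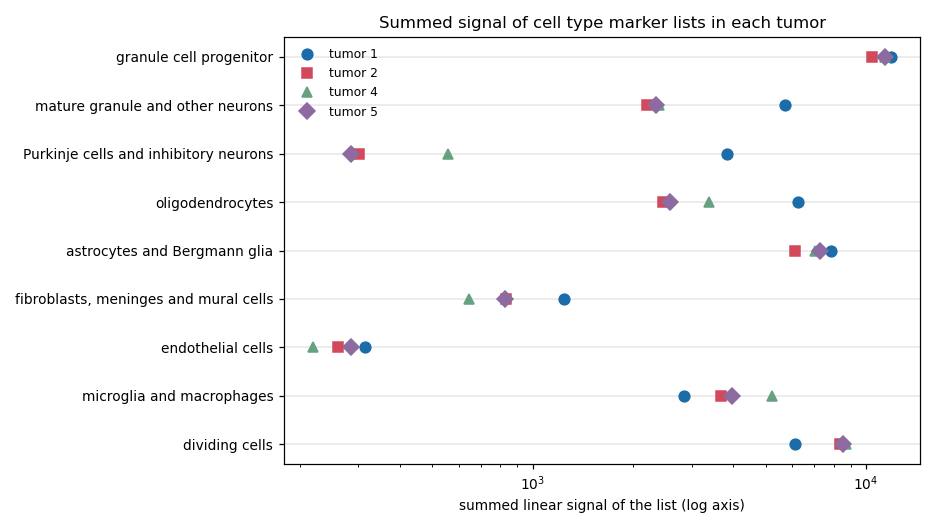
Summed linear signal of 9 marker lists (horizontal log axis), 1 point per tumor. Tumor 1 lies far to the right for Purkinje cells and inhibitory neurons (3839, against 285.4 to 555.7) and to the left for dividing cells (6144, against 8392 to 8726).

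The upstream sequences of members that were low or high together in tumor 1 are shown for comparison. RefSeq promoter windows of the GRCm38.p6 build were matched by symbol for 8 of the 10 genes, all but Gli1 and Boc, and the 250 bases before the annotated start are printed 5′ to 3′ along the gene's strand. Capitals mark GC boxes (GGGCGG, or CCGCCC on the other strand). Smo and Gas1 were lowest in tumor 1, and Hhip and Gli3 were highest there.
Smo (chr6:29735247-29735496, plus strand): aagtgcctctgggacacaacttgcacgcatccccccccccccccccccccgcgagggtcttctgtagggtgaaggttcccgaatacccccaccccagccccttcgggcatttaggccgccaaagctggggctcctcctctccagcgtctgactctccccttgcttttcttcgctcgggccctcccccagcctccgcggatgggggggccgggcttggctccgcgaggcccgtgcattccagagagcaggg
Gas1 (chr13:60177536-60177785, minus strand): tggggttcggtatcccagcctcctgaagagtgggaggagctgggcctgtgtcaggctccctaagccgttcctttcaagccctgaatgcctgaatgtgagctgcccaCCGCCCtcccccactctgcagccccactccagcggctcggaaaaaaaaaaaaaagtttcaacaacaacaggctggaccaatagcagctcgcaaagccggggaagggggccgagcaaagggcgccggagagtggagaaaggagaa
Hhip (chr8:80058009-80058258, minus strand): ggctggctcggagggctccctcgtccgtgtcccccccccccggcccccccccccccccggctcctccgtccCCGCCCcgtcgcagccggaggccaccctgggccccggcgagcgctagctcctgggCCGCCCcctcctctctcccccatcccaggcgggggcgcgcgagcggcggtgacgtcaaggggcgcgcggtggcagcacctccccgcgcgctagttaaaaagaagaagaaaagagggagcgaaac
Gli3 (chr13:15463473-15463722, plus strand): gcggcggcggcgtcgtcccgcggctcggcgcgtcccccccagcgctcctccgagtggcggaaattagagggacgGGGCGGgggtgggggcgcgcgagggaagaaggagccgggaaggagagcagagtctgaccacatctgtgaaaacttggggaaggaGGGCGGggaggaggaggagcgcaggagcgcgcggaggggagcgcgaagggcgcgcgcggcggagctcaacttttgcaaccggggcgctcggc

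The windows of Hhip and Gli3 held 28 and 34 CG dinucleotides and 2 GC boxes each, and those of Smo and Gas1 held 15 and 10 with 0 and 1 GC boxes. The median over all 32851 windows was 6 CG dinucleotides, and 32.7% of all windows held a GC box, as did 6 of the 8 member windows. The other windows did not follow this split: Ptch1 and Gli2, also lowest in tumor 1, had 41 and 22 CG dinucleotides, and Cdon, highest there, had 1. The 9-letter GLI binding motif GACCACCCA, searched on both strands, was in 0 of the 8 member windows and in 0.225% of all windows. These letters are not in these windows, and other parts of the genes were not searched.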

How the data were processed

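The deposited values are log2 signals, 1 column per tumor. The submitters' processing notes name MAS5, which subtracts background and summarizes each probe set on its own array, then scales each array. Neither its version nor the scaling target is given. Every deposited value (100%) was a multiple of 0.1 on the linear scale, within 0.0001. No detection calls were used. MAS5 does not align array distributions, so bright genes can differ between arrays for that reason.

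Of 29304 probe sets, 61 controls were left out, 24679 had a single symbol in the platform annotation, 647 several and 3917 none. Signals were raised to a floor, the median over arrays of the 40th percentile (5.12, or 34.8 linear), and probe sets with a mean at or above the median of means (5.87, or 58.5 linear) were tested. Each tumor was compared with the remaining 3 in limma 3.58.1, run in R 4.3.3 (lmFit, eBayes with an intensity trend, Benjamini-Hochberg over 13525 probe sets), and the code was tested on simulated data. The labels do not say that the tumors came from separate mice, so p-values measure the spread between these samples. The number of arrays limits the precision. All 10 genes are named, each by its brightest probe set where 1 probe set per gene is used. Of the other hedgehog genes, those that passed and up to 3 per list with the largest range above the floor are named; other pathway, marker and target genes named for their role were chosen after their values were seen. Alternatives changed the floor, the filter, the scaling, the variance model, the probe sets and the tumors included. The genes and lists were chosen with earlier results of these data known.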

Additional observations from a re-analysis of the deposited data

Results flagged for a closer look

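In 2 of the 22 probe sets, 1 tumor lay far from the other 3, the gap to its nearest neighbour being a larger share of the whole range than Dixon's critical value for 4 samples. Chance gives this in about 1 in 20 groups. The share of all probe sets with such a gap is not given here, so the count is not read as a trait of these genes. For Gas1 1448494_at the gap was 0.922 of the range, with tumor 1 at 8.20 and the others between 8.59 and 8.62. For Boc 1426869_at it was 0.848, with tumor 1 at 7.84 and the others between 8.19 and 8.26. The other probe set of each gene, Gas1 1416855_at and Boc 1427516_a_at, also read lowest in tumor 1 but without such a gap.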

How the results depend on the processing

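No hedgehog probe set passed in any tumor under any alternative run, including those that left out a tumor. A pass needs a range of 2-fold or more, which most of them lacked in every run, so this does not show stability. The number with a range of 2-fold or more, 1 as reported, was 0 with the floor at the 50th percentile, 0 with a mean filter at the 75th percentile, 0 after quantile normalization, between 0 and 1 with a tumor left out, and 8 of 22 with neither floor nor filter, a setting added after seeing the data in which noise below the floor counts. With neither, Gli3 in tumor 1 differed by 2.69 (limma adjusted p = 0.202) and 2.44 (0.420) on its 2 probe sets and Cdon by 0.73 (0.459). With the floor but no filter, their other tumors all sit at the floor with no spread, so that fit gives no usable p for them.

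Of the 8 tested genes, the tumor 1 difference kept its direction in every alternative run for all but Sufu, which lay between -0.051 and 0.11 with a tumor left out. Differences near 0 in other tumors changed sign when a tumor was left out: in tumor 2, Boc (-0.045 to 0.17), Hhip (-0.30 to 0.21), Ptch1 (-0.10 to 0.039) and Smo (-0.14 to 0.10); in tumor 4, Boc (-0.0069 to 0.21), Gas1 (-0.029 to 0.41), Gli2 (-0.26 to 0.14), Ptch1 (-0.010 to 0.13) and Smo (-0.0091 to 0.23); in tumor 5, Gli1 (-0.016 to 0.33), Hhip (-0.35 to 0.17) and Sufu (-0.024 to 0.14). After quantile normalization Ptch1 also changed sign, to 0.18 in tumor 2 and -0.098 in tumor 4. The cause was not tested. No paired analysis was possible because all tumors form a single group. Signal over background limits what can be said of Gli3, Cdon and the dim probe sets of Hhip, Ptch1 and Sufu.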
